A study of Mus musculus with 27 samples.

Results

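The immediate early genes described here are Fos, Fosb, Jun, Junb, Egr1, Atf3, Ier2, Ier3, Dusp1 and Myc. All probe sets annotated to these 10 genes were taken, which gave 15 of the 12422 probe sets tested and 10 of the 8251 genes named by a probe set of their own, and no member probe set named several genes. Immediate early genes are transcribed within minutes of a growth factor, serum or stress signal, without new protein synthesis, through serum response factor, its ternary complex partners and CREB. Fos and Jun proteins pair to form the transcription factor AP-1, Egr1 is a zinc finger factor, and Dusp1 is a phosphatase that switches off the MAP kinases that induce these genes. Their transcripts and proteins are short lived, and they also respond to the handling of tissue.

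Gene expression was measured in murine neural crest explants on 27 Affymetrix MG_U74Av2 arrays of total RNA. The dorsal neural tube of each embryo was split along its midline, so that the control and the retinoic acid (RA) side came from the same animals. RA is the vitamin A derivative that acts through nuclear receptors and patterns the embryonic axis, and explants received it at 1e-06 M, dissolved in ethanol, with exposures of 6, 12, 24 and 48 h. There were 3 control and 3 RA arrays for the 6 h exposure, 3 and 3 for 12 h, 4 and 4 for 24 h, and 4 and 3 for 48 h. For the 6 h exposure, explants had first grown overnight on fibronectin in medium with 10% horse serum, and RA was added in the morning. The labels give no strain, embryonic age, number of pooled embryos or vehicle for the control side, and they do not say whether the longer exposures began after the same overnight culture.

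The array medians lay between 91.97 and 100.4 intensity units. A control and an RA array that shared time and scan day and had adjacent record numbers were taken as a pair, which gave 13 record pairs, and the array 48 h control 2 had no partner. The 6 h and the 48 h arrays had scan days of their own, so that time and scan day cannot be told apart for them, while 12 h and 24 h arrays shared the scan days numbered 3 and 4. The array titled 48 h control 3 is described in the labels as RA treated, and it was kept by its title. The RA targets Cyp26a1, Dhrs3 and Hoxa5 were higher in RA in 13 of 13 pairs, and Cyp26a1 lay between 4.36 and 4.92 in controls and between 5.63 and 7.71 in RA (log2). The crest genes Snai2, Erbb3, Twist1 and Sox10 had mean log2 levels of 9.15, 8.87, 8.40 and 7.26, whereas Foxd3 and Ednrb were dim, on average under the 25th percentile. In such mixed explants fewer cells of a type and less RNA per cell cannot be told apart.

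Upstream sequences are shown for 3 members on which the results turn, Fos, with the widest spread, and Dusp1 and Atf3, which moved in opposite directions between 6 and 12 h. They are the 250 bases before the annotated start in RefSeq, build GRCm38.p6, written 5′ to 3′ on the gene's strand. Capitals mark the cAMP response element TGACGTCA, its core TGACGT, the AP-1 motif TGANTCA, the TATA motif TATAAA and the CArG box that binds serum response factor, each searched on both strands, and the core is part of the full element. The Fos stretch is chr12:85473640-85473889 on the plus strand, the Dusp1 stretch chr17:26508473-26508722 on the minus strand and the Atf3 stretch chr1:191183334-191183583 on the minus strand.
Fos: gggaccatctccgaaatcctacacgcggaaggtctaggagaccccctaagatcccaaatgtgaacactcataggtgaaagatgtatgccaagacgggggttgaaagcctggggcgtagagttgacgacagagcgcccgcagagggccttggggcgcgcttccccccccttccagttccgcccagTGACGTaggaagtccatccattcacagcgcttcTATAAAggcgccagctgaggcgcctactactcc
Dusp1: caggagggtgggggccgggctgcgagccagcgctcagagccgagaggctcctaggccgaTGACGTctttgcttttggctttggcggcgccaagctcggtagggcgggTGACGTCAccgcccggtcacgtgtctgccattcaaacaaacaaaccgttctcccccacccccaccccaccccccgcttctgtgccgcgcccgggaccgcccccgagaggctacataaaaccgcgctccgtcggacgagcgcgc
Atf3: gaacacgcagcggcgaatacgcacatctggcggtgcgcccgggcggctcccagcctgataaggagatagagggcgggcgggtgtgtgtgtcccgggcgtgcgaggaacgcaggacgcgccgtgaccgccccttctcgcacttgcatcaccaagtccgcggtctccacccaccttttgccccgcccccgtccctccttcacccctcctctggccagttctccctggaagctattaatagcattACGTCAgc

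The core TGACGT began 66 bases before the start of Fos, where TATAAA followed at 33 bases. Dusp1 held the full element TGACGTCA at 143 bases and a further core at 191 bases. Atf3 held the core on the opposite strand at 8 bases. The search for members left out the entries of 1 chromosome, which the count over all promoters kept. Of the 10 members 7 were found in this way, and Egr1, Ier2 and Myc were not. A member on the chromosome left out would have been missed by this search even with an entry. Nothing is thus known here of the motifs of Egr1, Ier2 and Myc, and the counts below do not cover them. The core stood in 3 of the 7, against 6.47% of 32851 promoters of this length, and the full element in 1 of 7, against 1.55%. TATAAA stood in 1 of 7 against 12.4%, and the AP-1 motif and the CArG box in 0 of 7, against 6.75% and 1.47%. Bases farther upstream than these stretches were not searched, so these counts do not show that a member lacks an AP-1 motif or a CArG box. A match of letters is a description and shows no binding.

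Fos is the partner of Jun in AP-1, and its bright probe set 160901_at varied more over the 27 arrays than nearly all others on the chip. Its log2 levels in the 6 h arrays were 8.55, 8.72 and 8.45 in controls and 8.33, 8.92 and 8.43 in RA. In the 12 h arrays they were 10.87, 9.67 and 9.12 in controls and 10.41, 9.56 and 7.91 in RA. The 6 h arrays thus lay close together, while the 12 h arrays spread over a 5.67-fold range in RA and a 3.35-fold range in controls. In the 24 h arrays the levels were 8.42, 7.76, 8.94 and 8.34 in controls and 8.40, 7.26, 8.27 and 8.21 in RA. In the 48 h arrays they were 7.81, 8.63, 8.999 and 9.18 in controls and 6.997, 9.70 and 9.30 in RA. The highest 2 Fos levels of the study belonged to the control and RA arrays of 1 record pair at 12 h, and the lowest was 48 h RA 1, whose partner was the lowest control of that time. Control and RA overlapped at all 4 times.

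The SD of Fos over all arrays was 0.87 on the log2 scale, and 0.491% of probe sets had a larger one. Record pair took 55.5% of its variance, time 35.1% and RA within time 3.79%. At 6, 12, 24 and 48 h RA minus control was -0.01 ± 0.59 (SE), -0.59 ± 0.59, -0.33 ± 0.51 and 0.01 ± 0.55 on the log2 scale. Fos was lower in RA in 10 of 13 pairs, as were at least that many for 8.14% of all probe sets, and the mean difference over the 4 times was -0.23 ± 0.28 (limma adjusted p = 0.999). Between 6 and 12 h the control mean was 1.31 ± 0.59 higher, with no overlap, and this did not pass the test (adjusted p = 0.238) but did with the compared groups fitted alone (adjusted p = 0.0329). Without 12 h control 1 it was 0.82. Between 12 and 24 h the control mean differed by -1.52 ± 0.55, again without overlap (adjusted p = 0.597). A second Fos probe set, 161716_at, was dim, under the 25th percentile on 27 of 27 arrays, between 3.93 and 4.86, and correlated with the bright one by 0.31 over the 27 arrays.

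**Figure D1:**
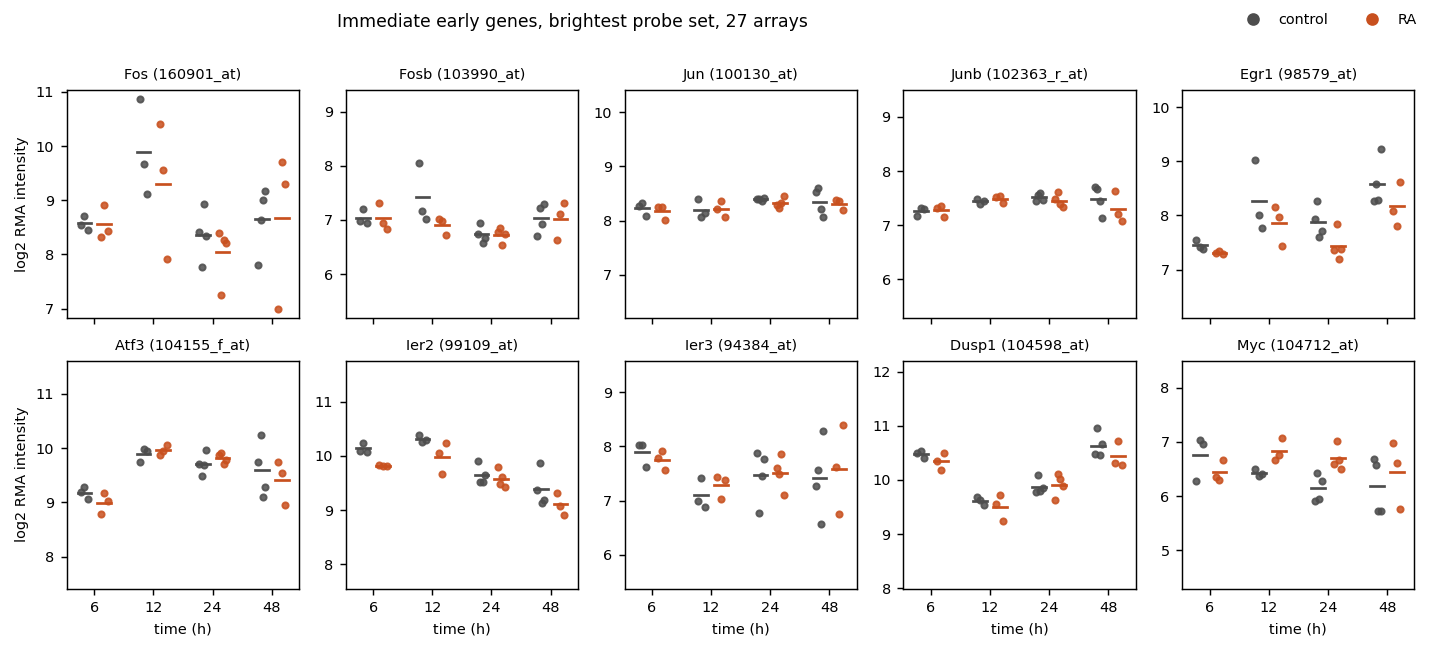
Log2 RMA intensity of the brightest probe set of each of the 10 genes (y axis, a range of equal width in each panel) on all 27 arrays by time in hours (x axis); points are arrays, bars are group means, grey is control and orange is RA. Fos runs from 6.997 to 10.87, whereas Jun stays between 8.01 and 8.61.

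The other AP-1 subunits varied less. Fosb, a Fos relative, read 8.06, 7.17 and 7.02 in the 12 h controls and 7.03, 6.98 and 6.71 in the 12 h RA arrays, and at the other times it lay between 6.53 and 7.32. Its highest array was 12 h control 1, the array with the highest Fos level, and the RA partner was 1.03 lower on the log2 scale. RA minus control at 12 h was -0.51 ± 0.21, with overlap between the groups (unadjusted p = 0.0258, limma adjusted p = 1). In controls Fosb was lower at 24 h than at 12 h by a log2 difference of -0.68 ± 0.20 (adjusted p = 0.384), which passed when scan day was the block (-0.72, adjusted p = 0.038). Within scan day 3 it was -0.99 (adjusted p = 0.326), and without the 12 h arrays of record pair 4 it was -0.36 (adjusted p = 1).

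Jun, the AP-1 subunit that can pair with itself, ranged from 8.01 to 8.61, and 77.4% of probe sets had a larger SD. Junb, which can oppose Jun at AP-1 sites, was read by 102363_r_at between 7.08 and 7.71 and by 102362_i_at between 6.31 and 7.19, and these 2 probe sets correlated by 0.20. None of the Jun and Junb probe sets passed any of the 16 tests of RA or time. Of 15 further AP-1 and ATF/CREB genes measured, 0 passed for RA averaged over the times with limma, also with record pair as a block. Over all probe sets 0.564% and 2.94% did. From 6 to 12 h in controls 1 of the 15 fell and 0 rose, against 5.43% of all called in either direction. That gene was Jund, a subunit that is usually present without a stimulus, which fell by 1.09 on the log2 scale in controls (adjusted p = 3.3e-04) and by 1.19 in RA arrays (adjusted p = 4.8e-05). From 6 to 48 h in RA arrays 2 of the 15 rose, Atf6 and Atf4, which act in the response to endoplasmic reticulum and amino acid stress. Over the same interval 2 fell, Jund and Batf3, where 11.7% of all probe sets were called in either direction.

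Egr1, an early growth response factor, was lower on the RA side of every record pair. Its bright probe set 98579_at read 7.54, 7.41 and 7.39 in the 6 h controls against 7.30, 7.35 and 7.28 in RA. The 12 h controls read 9.02, 8.01 and 7.76 against 8.16, 7.97 and 7.43. At 6 h every RA array lay below every control, while the 12 h groups overlapped. The 24 h controls read 7.93, 8.26, 7.61 and 7.72 against 7.35, 7.83, 7.20 and 7.39. The 48 h controls read 8.27, 8.58, 8.28 and 9.23 against 8.09, 7.80 and 8.62. At both later times the groups overlapped.

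RA minus control in Egr1 lay between -0.86 and -0.04 over the 13 pairs, with a median of -0.34, and 0.29% of all probe sets were lower in RA in 13 of 13 pairs. The mean over the 4 times was -0.35 ± 0.13 on the log2 scale, 1.28-fold lower, and did not pass in limma without a block (adjusted p = 0.529). With record pair as a block it was -0.35 ± 0.06 and passed (adjusted p = 0.00209), and it passed in 13 of 13 such fits that each left out 1 pair (adjusted p from 0.000747 to 0.00936). A block for scan day left it short of the threshold (adjusted p = 0.0819). By time the differences were -0.14 ± 0.28, -0.41 ± 0.28, -0.44 ± 0.24 and -0.42 ± 0.26 at 6, 12, 24 and 48 h, and a change of the RA effect with time was not called (adjusted p = 1). None of the 4 passed, with or without the record pair block, but with that block the 24 h difference passed without pair 4 or pair 5 (adjusted p = 0.0243 and 0.0439) and the 48 h difference without pair 4 (adjusted p = 0.0497). The second Egr1 probe set, 161802_i_at, was below the 25th percentile on 21 of 27 arrays, was lower in RA in 7 of 13 pairs, and correlated with the bright one by 0.15.

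Ier2, a nuclear protein induced early by growth factors, also lay lower in RA in most pairs. Probe set 99109_at read 10.09, 10.25 and 10.08 in controls and 9.84, 9.81 and 9.81 in RA after 6 h. After 12 h it read 10.39, 10.26 and 10.29 in controls and 10.05, 9.67 and 10.24 in RA. At both times every RA array lay below every control array. After 24 h it read 9.91, 9.52, 9.52 and 9.64 in controls and 9.79, 9.49, 9.61 and 9.43 in RA. After 48 h it read 9.38, 9.88, 9.13 and 9.19 in controls and 9.32, 9.08 and 8.92 in RA. At these later times the groups overlapped.

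RA was lower than control for Ier2 in 12 of 13 pairs, the exception being a 24 h pair with a log2 difference of 0.09, and 1.26% of probe sets were lower in at least 12. The mean over the 4 times was -0.25 ± 0.08, 1.19-fold lower, with an adjusted p of 0.267 in limma without a block. With record pair as a block it was -0.21 ± 0.05 and passed (adjusted p = 0.0273), as it did when scan day was the block (adjusted p = 0.0289). It passed in 7 of 13 fits that left out 1 pair, and was lost without pair 2, 3, 4, 5, 7 or 13 (adjusted p up to 0.092).

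RA called 0 of the 15 immediate early probe sets at 6, 12, 24 or 48 h with limma, where 0.0242%, 0.0242%, 0.153% and 0.274% of all probe sets were called. An unadjusted p below 0.05 was reached by 0, 1, 1 and 0 of them, against 533, 309, 228 and 425 of all 12422 probe sets. Averaged over the times 0 of 15 were called, against 0.564% of all, with 2 at an unadjusted p below 0.05, against 699 of all. With record pair as a block 2 of 15 were called, Egr1 and Ier2, both lower, against 2.94% of all probe sets in either direction and 1.67% lower. The median log2 difference of the 15 was -0.05, against 0.01 over all probe sets, and 12 of 15 were negative. A difference of the RA effect between times was called for 0 of 15, against 0.0161% of all. It reached an unadjusted p below 0.05 for 0, against 129 of all. Control and RA did not overlap for 2, 3, 1 and 0 of the 15 at 6, 12, 24 and 48 h, against 15.6%, 8.99%, 2.24% and 1.83% of all probe sets.

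**Figure D2:**
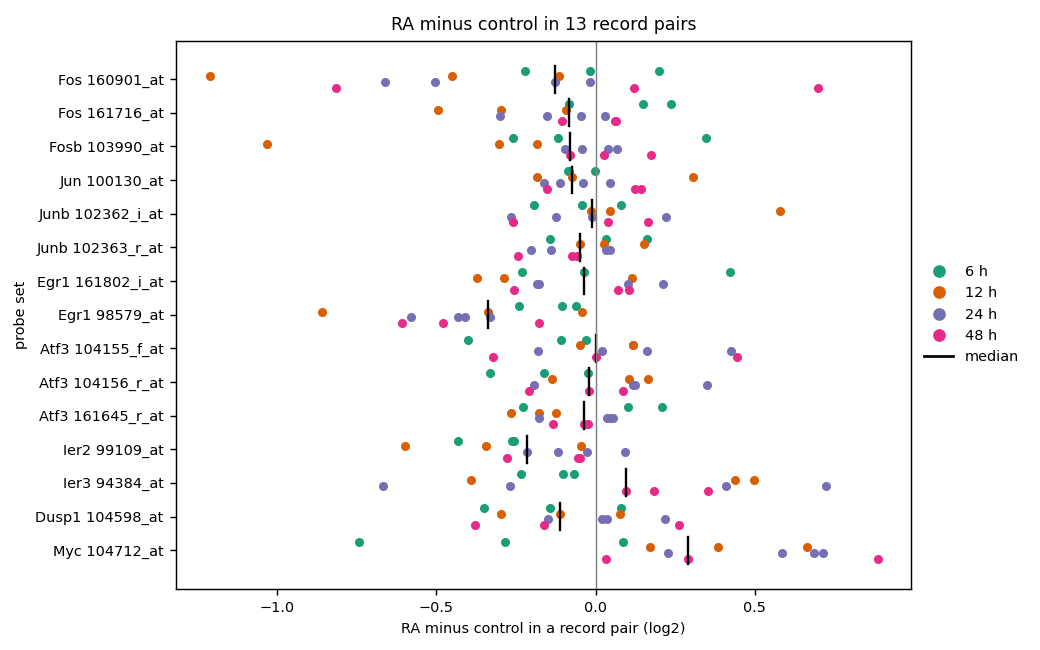
RA minus control on the log2 scale (x axis) in each of the 13 record pairs for the 15 probe sets (y axis); points are pairs coloured by time, and black bars are medians. All 13 Egr1 98579_at points lie below 0, 12 of 13 Ier2 points do, and 11 of 13 Myc points lie above 0.

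Summed marker levels of neural tissue differed between control and RA arrays at some times. The summed intensity of 7 neural tube progenitor genes, 5 of them brighter than the median probe set, ran from 3950 to 4280 in 12 h controls and from 2992 to 3560 in RA, and from 3861 to 4294 against 2949 to 3730 at 24 h. At 6 h these sums were 3634 to 4307 against 3495 to 3990, and at 48 h 2776 to 3606 against 2398 to 3417. Over the 4 times 3 of the 7 had a positive and 4 a negative RA difference, with a median of -0.01 on the log2 scale, and 1 passed, the lipid-binding radial glial gene Fabp7, which fell (log2 difference -0.76, adjusted p = 0.00154). Of 7 neuron genes 3 were brighter than the median probe set and 3 lay on average under the 25th percentile, so the bright ones weigh most in their sums. The sums of these neuron genes did not overlap at 6 h (3000.35 to 3296 in controls, 2731 to 2990.02 in RA), at 12 h (2769.6 to 2912 against 2158 to 2738) or at 24 h (2401 to 2797 against 2116 to 2369.9). They overlapped at 48 h, at 1661 to 2715 against 1391 to 1874. Of these 7 genes 6 had a negative RA difference, with a median of -0.12. By limma 0 passed without a block and 2 with the record pair block, against 0.564% and 2.94% of all probe sets. The 9 neural crest genes had overlapping sums at all 4 times, at 12 h 1911 to 1971 against 1763 to 2345. The part of these markers in the Egr1 and Ier2 differences was not tested.

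Egr2, the hindbrain and Schwann cell relative of Egr1, was the probe set most like Egr1 over the 27 arrays (Pearson r = 0.76), followed by Inpp1 (0.74) and Atp6v1b2 (0.71). These correlations share arrays, pairs and scan days and are a description. Egr2 was lower in RA by a mean log2 difference of -0.49 ± 0.12 (adjusted p = 0.0779), and passed with record pair as a block (-0.52, adjusted p = 3.7e-05). Of 18 other immediate early transcription factors measured, 0 passed for the RA mean in limma without a block, against 0.564% of all probe sets, and 4 passed with it, against 2.94%. Those 4 were Egr2, Klf6 (-0.34, adjusted p = 0.00613) and Nfil3 (-0.39, adjusted p = 3.8e-04), all lower, and the circadian repressor Bhlhe40, higher (0.54, adjusted p = 3.7e-04). Of 27 other immediate early response proteins 1 fell without a block, the antiproliferative gene Btg1 (-0.36, adjusted p = 0.0463). With the block 4 of 27 passed, Btg1, Ccn2 and Ptgs2 lower and the EGF receptor inhibitor Errfi1 higher. The lists of 7 MAP kinase phosphatases and feedback inhibitors, 10 Myc and Max network genes and 15 heat shock genes had 0 called for the RA mean, with and without the block, and the list of 15 SRF, ternary complex factor and MAP kinase genes had 0 without it and 2 with it.

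Myc, a growth-promoting transcription factor, ran the other way from 12 h on. Probe set 104712_at read 6.27, 7.04 and 6.95 in 6 h controls and 6.36, 6.29 and 6.67 in 6 h RA arrays. It read 6.499, 6.38 and 6.40 in 12 h controls and 6.67, 6.76 and 7.07 in 12 h RA arrays. The 6 h groups overlapped, and at 12 h every RA array lay above every control. It read 5.91, 6.43, 5.95 and 6.28 in 24 h controls and 6.60, 7.01, 6.66 and 6.503 in 24 h RA arrays. It read 6.69, 6.58, 5.72 and 5.73 in 48 h controls and 6.98, 6.60 and 5.76 in 48 h RA arrays. The 24 h groups did not overlap either, whereas the 48 h groups overlapped.

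Myc was higher in RA in 11 of 13 pairs, against 2.31% of probe sets higher in at least 11, with 1 of 3 pairs at 6 h and every pair at the later times. The log2 difference was -0.31 ± 0.27, 0.41 ± 0.27, 0.55 ± 0.24 and 0.27 ± 0.26 at 6, 12, 24 and 48 h, none of which passed (limma adjusted p = 1 at each). The mean over the times was 0.23 ± 0.13, and 0.26 ± 0.08 with record pair as a block, which did not pass (adjusted p = 0.0927) but did so without pair 2 (0.32, adjusted p = 0.0392). RA within time took 27.6% of the variance of Myc, against a median of 6.98% over all probe sets. The change of the RA effect with time did not pass (unadjusted p = 0.131). Nearest to Myc over the arrays were Mybbp1a (r = 0.75), Wars (0.72) and Gnpat (0.70).

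Over culture time, 4 of the 15 probe sets changed in controls by a moderated F-test, against 12.9% of all, and 4 in RA arrays, against 15.2%. Dusp1, Ier2 and the Atf3 probe set 104156_r_at changed in both, Egr1 98579_at in controls and the Atf3 probe set 104155_f_at in RA arrays. From 6 to 12 h 3 of 15 were called in controls, against 5.43%, and 3 in RA arrays, against 9.64%. From 12 to 24 h 0 of 15 were called by limma in either, against 0.0564% and 0.0161%. An unadjusted p below 0.05 was reached by 3 in each, against 816 of all 12422 probe sets in controls and 652 in RA arrays. From 24 to 48 h 1 was called in controls, against 1.08%, and 0 in RA arrays, against 0.483%. In RA arrays 5 had an unadjusted p below 0.05, against 1440 of all. From 6 to 48 h 2 were called in each, against 9.52% and 11.7%. From 6 to 12 h the median size of the log2 change was 0.35 in controls and 0.47 in RA arrays over the 15, against 0.14 and 0.17 over all probe sets.

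Dusp1, the MAP kinase phosphatase, fell between 6 and 12 h and was high again at 48 h. Its log2 levels were 10.50, 10.53 and 10.41 in controls and 10.36, 10.18 and 10.49 in RA at 6 h. They were 9.68, 9.64 and 9.54 in controls and 9.56, 9.71 and 9.24 in RA at 12 h. Every 12 h array lay below every 6 h array. They were 9.78, 10.08, 9.80 and 9.84 in controls and 9.63, 10.10, 10.02 and 9.88 in RA at 24 h. They were 10.47, 10.95, 10.46 and 10.65 in controls and 10.31, 10.72 and 10.28 in RA at 48 h. Every 48 h array lay above every 24 h array, and 6 h and 48 h overlapped.

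From 6 to 12 h Dusp1 fell by 0.86 ± 0.15 on the log2 scale in controls (1.81-fold lower, adjusted p = 0.00119) and by 0.83 ± 0.15 in RA arrays (1.78-fold lower, adjusted p = 9.6e-04). Both calls held in all 36 alternative fits run for them. From 24 to 48 h it rose in controls by 0.76 ± 0.13 (adjusted p = 0.00466) and was 0.53 ± 0.14 higher in RA arrays, which did not pass (adjusted p = 0.113) unless 48 h control 3 was counted as an RA array (adjusted p = 0.0318). Fitted to the compared groups alone, the control rise did not pass (adjusted p = 0.14). In order of control means, Dusp1 stood at 9.62 ± 0.07 (SD, n = 3) at 12 h, 9.88 ± 0.14 (n = 4) at 24 h, 10.48 ± 0.06 (n = 3) at 6 h and 10.63 ± 0.23 (n = 4) at 48 h, and neither 12 and 24 h nor 6 and 48 h differed by the test. Time took 84.2% of its variance, against a median of 27.0% over all probe sets, and record pair 8.87%. Its nearest probe sets over the arrays were Bdnf, a neurotrophin (r = 0.90), Ndrg2 (0.87) and Ghr, the growth hormone receptor (0.86). Of the 7 other MAP kinase phosphatases and feedback inhibitors 0 passed from 6 to 12 h or from 6 to 48 h in either treatment by limma. In these comparisons 5.43% to 11.7% of all probe sets were called.

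Atf3, a stress-induced factor of the ATF/CREB family, rose over the interval in which Dusp1 fell. Probe set 104155_f_at read 9.18, 9.28 and 9.06 in controls at 6 h and 9.75, 9.99 and 9.94 at 12 h. In RA it read 8.78, 9.17 and 9.03 at 6 h and 9.87, 9.94 and 10.06 at 12 h. The times did not overlap in either treatment. At 24 h it read 9.71, 9.48, 9.68 and 9.97 in controls and 9.87, 9.91, 9.70 and 9.79 in RA. At 48 h it read 9.75, 10.23, 9.09 and 9.27 in controls and 9.75, 9.54 and 8.95 in RA, where 4 of 7 arrays lay above the 6 h range. The rise from 6 to 12 h was 0.96 ± 0.21 in RA arrays (1.95-fold, adjusted p = 0.00473) and 0.72 ± 0.21 in controls (1.65-fold, adjusted p = 0.0451). The control call was lost in 19 of 36 alternatives, among them median centring (adjusted p = 0.0727), a scan day block (adjusted p = 0.182) and leaving out any 1 of the 6 control arrays compared (adjusted p up to 0.161).

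Probe set 104156_r_at followed the first one over the arrays (r = 0.92), with rises of 0.82 ± 0.16 in RA arrays (adjusted p = 0.00178) and 0.60 ± 0.16 in controls (adjusted p = 0.025). The control call was lost in 7 of 36 alternatives, namely a scan day block (adjusted p = 0.112), leaving out the 12 h arrays of record pair 4 (adjusted p = 0.0552) and leaving out any 1 of 5 of the 6 control arrays, 12 h control 1 excepted. The remaining Atf3 probe set, 161645_r_at, did not follow (r = -0.23 with the first), stayed between 5.80 and 6.40 and passed no test. All Atf3 identifiers carry suffixes that Affymetrix uses for probe sets that can bind related transcripts or that broke a design rule. The suffix is f_at for the first and r_at for the others. Junb 102362_i_at, Junb 102363_r_at and Egr1 161802_i_at also carry a suffix other than the plain one. Signal from other genes was not tested. The nearest probe sets to 104155_f_at were Igbp1, Ogfr and Ercc3 (r = 0.90 each).

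**Figure D3:**
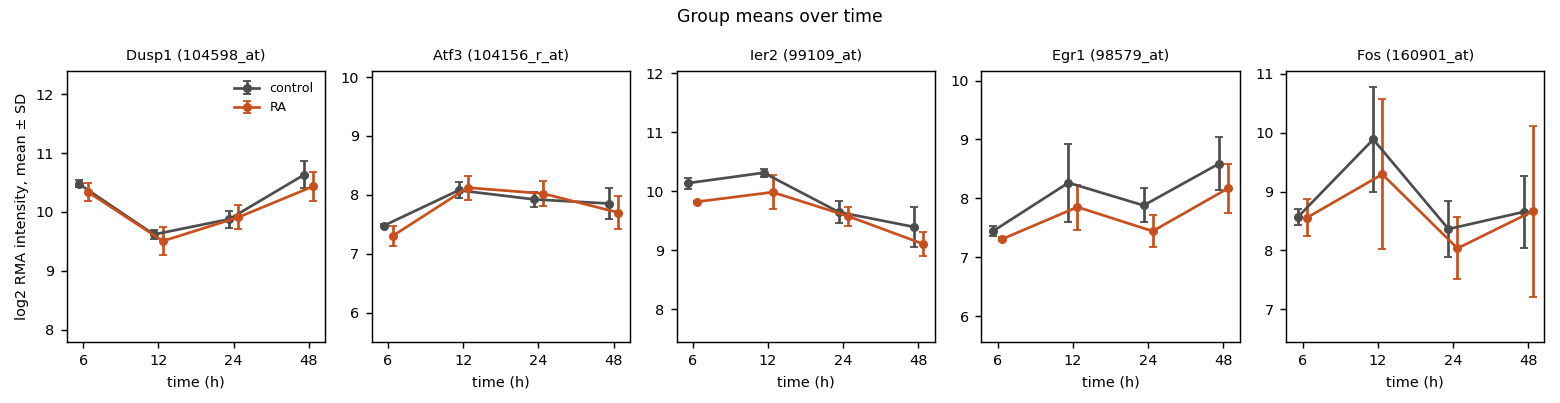
Mean log2 RMA intensity ± SD (y axis) at 6, 12, 24 and 48 h (x axis, not to scale) for 5 probe sets, in controls (grey) and RA arrays (orange), with 3 or 4 arrays a point. Dusp1 falls from 10.48 to 9.62 between 6 and 12 h in controls while Atf3 104156_r_at goes from 7.47 to 8.08, and the Fos bars are the widest.

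Ier2 was lower at 48 h than at 6 h in both treatments. From 6 to 48 h it fell by 0.74 ± 0.15 on the log2 scale in controls (1.68-fold lower, adjusted p = 0.0027) and by 0.72 ± 0.16 in RA arrays (1.64-fold lower, adjusted p = 0.00479). The control call was lost when the compared groups were fitted alone (adjusted p = 0.0802). Most of the difference lay between 12 and 24 h in controls, -0.67 ± 0.15 without overlap, which did not pass (adjusted p = 0.161) but did when scan day was the block (-0.64, adjusted p = 0.00626) and without 48 h control 2 (adjusted p = 0.0395). Within scan day 3, which held both times, the difference was -0.75 (adjusted p = 0.251). Nearest to Ier2 were Actl6a, a chromatin remodelling subunit (r = 0.90), Rrm2, a ribonucleotide reductase subunit (0.88), and Aurka, a mitotic kinase (0.87).

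Egr1 98579_at was higher at 48 h than at 6 h, but not by a steady rise. Between 12 and 24 h its mean went from 8.27 to 7.88 in controls and from 7.85 to 7.44 in RA arrays. From 6 to 48 h it rose by 1.14 ± 0.26 in controls (2.21-fold, adjusted p = 0.00676), a call kept in all 36 alternatives, and by 0.86 ± 0.28 in RA arrays (1.81-fold, adjusted p = 0.0483). The RA call was lost in 21 of 36 alternatives, among them median centring, cyclic loess, scan day as a block and leaving out 48 h RA 3 (0.63, adjusted p = 0.235), and also on leaving out arrays of other groups, with adjusted p near the threshold. No 6 h array exceeded 7.54, and no 48 h array lay below 7.80. Ier3, an early response gene linked to cell survival, was 8.02, 8.02 and 7.63 in 6 h controls and 6.998, 7.42 and 6.88 in 12 h controls, a difference of -0.79 ± 0.36 (adjusted p = 0.249), which passed with the compared groups fitted alone (adjusted p = 0.0109). Its 48 h arrays spread from 6.57 to 8.39, and record pair took 61.4% of its variance.

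**Figure D4:**
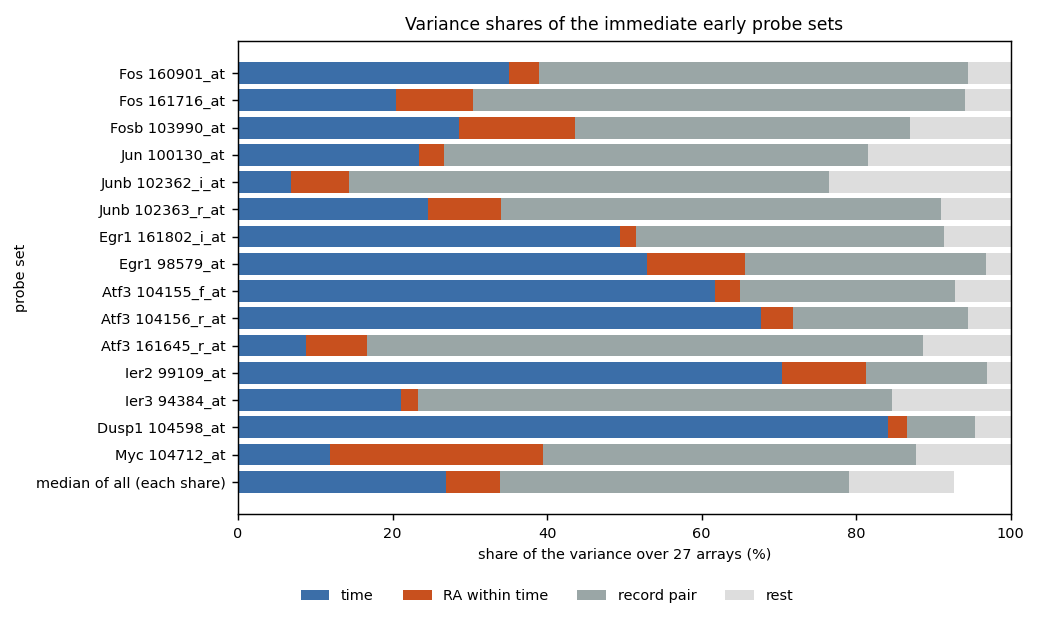
Share of the variance over the 27 arrays in percent (x axis) taken by time, RA within time, record pair and the rest for each of the 15 probe sets (y axis), with the median of each share over all probe sets in the last bar, which need not sum to 100. Time takes 84.2% for Dusp1 and 70.4% for Ier2, record pair 55.5% for Fos, and RA within time 27.6% for Myc.

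The median SD of the 15 probe sets over the arrays was 0.35 on the log2 scale, against 0.21 for all probe sets, while the median shares were like those of the array. Time took a median of 28.6% against 27.0%, RA within time 7.47% against 6.98%, and record pair 48.3% against 45.1%. The change from 6 to 48 h was called for 9.52% of all probe sets in controls and 11.7% in RA arrays. Of 27 other immediate early response proteins 1 rose and 5 fell in controls, and 6 rose and 4 fell in RA arrays. Ccn2, a matricellular protein, rose by 0.81 in controls (adjusted p = 0.00147) and 1.07 in RA arrays (adjusted p = 1.5e-04). Cxcl1 and Ccl2, chemokines, fell by 1.46 and 1.12 in controls (adjusted p = 0.00513 and 0.0371), and Pim1, a survival kinase, fell by 1.06 (adjusted p = 0.0011). Of 18 other immediate early transcription factors 0 rose and 2 fell in controls, and 3 rose and 0 fell in RA arrays. Of 10 Myc and Max network genes 2 fell and 0 rose in controls, Mycn by 1.68 (adjusted p = 1.7e-05) and Max, the partner of Myc, by 1.42 (adjusted p = 1.0e-06). In RA arrays Mycn fell by 1.13 and Max by 1.35 over the same interval, and Zbtb17 rose.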

How the data were processed

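The deposited values are RMA intensity values (RMA Express 0.2), per the submitters' processing notes, which also name GeneSpring as a later tool. The effect of GeneSpring on them is not stated in the sources. They were on a linear scale, and log2 was taken once. The plan had assumed log2 values. RMA gives no detection call, and precision is limited by the number of arrays. Of 12488 probe sets 66 controls were left out. Arrays were grouped by title.

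Groups were compared with limma 3.58.1 (R 4.3.3) in 1 model of 8 group means (19 residual degrees of freedom, no block), two-sided, with Benjamini-Hochberg adjustment over 12422 probe sets and a threshold of 0.05. The fit was tested on simulated data. The labels do not say that arrays are separate cultures, so p-values reflect only how these arrays spread, which may be technical. The labels state that each embryo gave both sides, not that equal numbers are embryo identities. After group means were subtracted, equal numbers correlated by 0.447 to 0.470 at 6 h and 0.229 to 0.622 at 24 h. At 12 h they correlated by -0.052 to 0.257 and at 48 h by -0.308 to 0.670. On these values alone they were read as pairs at 6 and 24 h only, though the replicate block joined them at every time. Record pairs came from the scanner records, with a median correlation of 0.451 over 13 pairs, against -0.203 over 33 other combinations. Subtracting the means of such small groups by itself lowers the other combinations where pairs correlate. Record pairs also shared a scan day by definition, so this contrast cannot tell pairing from scan day. At 12 h the record pairs joined equal numbers too, so the pairing had little backing from the values at that time.

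Every member probe set was named. Of each further list up to 6 genes past the threshold were named, as were 3 most alike probe sets for members described at length. The members and lists were chosen with earlier results of these data known. Alternatives were median centring, cyclic loess, removal of the 30% dimmest probe sets, replicate, scan day and record pair blocks, 48 h control 3 grouped as RA, leaving out each array, and the compared groups alone. Leaving out a record pair, or the 12 h arrays of pair 4, was added after seeing the data. Plots used matplotlib 3.10.9, and tables pandas 2.3.3 with numpy 2.4.6 in Python 3.11.15.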

Additional observations from a re-analysis of the deposited data

Results flagged for a closer look

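In 45 groups of 4 arrays and 1 probe set, 2 arrays stood apart from the other 3, and chance alone picks out about 1 in 20 such groups. Fos 160901_at was lowest in 24 h RA 2, at a log2 level of 7.259, while the other 3 RA arrays lay between 8.21 and 8.40. Its partner 24 h control 2 was also the lowest of its group, at 7.76. The dim Egr1 probe set 161802_i_at was lowest in 24 h RA 3, at 4.061.

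Ier3 94384_at was lower in RA in every pair at 6 h, by a mean of -0.1344 on the log2 scale, and higher in every pair at 48 h, by a mean of 0.2102. That contrast between these 2 times was not tested on its own, and the test of the RA effect over all 4 times did not call it (limma unadjusted p = 0.918).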

How the results depend on the processing

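No member difference that passed a test changed sign under any alternative run. For RA averaged over the times the count of 0 member probe sets became 1 with scan day as a block and 2 with record pair as a block. The paired fit by replicate block gave 0 for each RA comparison and changed no count of calls over time, for example 3 from 6 to 12 h in controls. Counts over time moved as follows. In controls from 6 to 12 h 3 became 1 with scan day as a block, 5 with the compared groups alone and 1 without the 12 h arrays of pair 4, and leaving out single arrays gave 1 to 3. From 12 to 24 h 0 became 2 with scan day as a block, and single arrays left out gave 0 to 1, the 1 being without 48 h control 2. From 24 to 48 h 1 became 0, and from 6 to 48 h 2 became 1, with the compared groups alone. The latter 2 became 3 with 48 h control 3 grouped as RA or left out, the addition being Atf3 104156_r_at (adjusted p = 0.0443 and 0.046). The F-test over time gave 2 to 4 with single arrays left out, and 2 without 6 h control 2 or 6 h control 3. In RA arrays from 6 to 12 h 3 became 5 with the compared groups alone. From 24 to 48 h 0 became 1 with 48 h control 3 grouped as RA, and leaving out single arrays gave 0 to 1, the 1 being without 48 h RA 1. From 6 to 48 h 2 became 1 under median centring, cyclic loess, scan day as a block or the compared groups alone, and leaving out single arrays gave 1 to 2. The cause of these moves was not tested. Over all probe sets 674 were called from 6 to 12 h in controls. It was 179 with scan day as a block, 251 without the 12 h arrays of pair 4 and 1924 with the compared groups alone. From 12 to 24 h in controls 7 became 107 with scan day as a block. From 24 to 48 h 134 in controls became 7 with the compared groups alone. In RA arrays 60 became 230 with 48 h control 3 grouped as RA. From 6 to 48 h in RA arrays 1458 became 559 with the compared groups alone and 1515 under cyclic loess. For the RA mean 70 became 286 with scan day and 365 with record pair as a block.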
